A study of Mus musculus with 14 samples.

Results

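Cldn10, Cntn4, Lix1, Pla2g4c, Stmn2 and Ceacam1 are 6 of the 21734 genes measured in sorted cells of the mouse embryonic limb. They were chosen from these same arrays for a high log2 intensity in the OCP4 population against the other populations, so every value that sets OCP4 against another group describes how they were picked and carries no test. Each gene is represented by its brightest probe set over the 14 arrays. Limbs of C57BL/6 embryos at day 16.5 had been dissociated with collagenase and dispase, and stained cells had been sorted by fluorescence; their RNA was hybridised to Affymetrix Mouse Gene 1.0 ST arrays. All sorted populations, called osteochondroprogenitors by the study, were CD9+. OCP4 cells were CD73+ Thy1+ (4 arrays), OCP1 cells CD73+ Thy1- (3 arrays), OCP3 cells CD73- Thy1+ (4 arrays) and OCP2 cells CD73- Thy1- (3 arrays). No group carried a transgene or a drug treatment in the labels, and nothing says whether arrays of a group came from separate litters or sorts, so the p-values below measure only the spread between these arrays. The arrays measure a sorted population as a whole: fewer cells of a type and less RNA per cell cannot be told apart.

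The 6 genes belong to unrelated families. Claudins such as Cldn10 are membrane proteins of tight junctions; Cldn10 makes channels that let ions pass between epithelial cells, and its alternative first exons give isoforms of different ion selectivity. Cntn4, contactin 4, is an immunoglobulin-type adhesion protein anchored in the membrane by lipid and best known from axon guidance. Lix1 was first described as a transcript of the developing limb in chick, where it also acts with the Hippo effector Yap1 in gut mesenchyme. Pla2g4c is a cytosolic phospholipase that frees fatty acids from membrane lipids, the first step towards prostaglandins. Stmn2 is a stathmin, a protein that destabilises microtubules and is abundant in growing neurites. Ceacam1 is an immunoglobulin-type adhesion receptor of epithelial, endothelial and immune cells whose tail recruits tyrosine phosphatases.

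The windows of 250 bases upstream of the listed transcription starts are shown because all the genes were picked for 1 shared pattern. Sequences are from RefSeq on GRCm38.p6, on the strand of the gene, and end at the base before the start. Capitals mark every match, on either strand, of 5 short motifs, which are spelled out after the sequences. RefSeq starts were matched for 5 of the 6 genes, Stmn2 being the other, and gave 8 windows. Of the overlapping pair of Cntn4 and the pair of Pla2g4c, 1 window each is printed. The coordinates are those of the RefSeq build, and the array files name no build.
Cldn10 start 1, chr14:118787621-118787870, plus strand: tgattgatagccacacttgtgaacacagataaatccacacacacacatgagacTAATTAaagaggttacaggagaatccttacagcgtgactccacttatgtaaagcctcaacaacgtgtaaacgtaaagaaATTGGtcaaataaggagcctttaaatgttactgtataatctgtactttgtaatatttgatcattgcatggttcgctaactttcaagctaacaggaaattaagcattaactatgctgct
Cldn10 start 2, chr14:118854700-118854949, plus strand: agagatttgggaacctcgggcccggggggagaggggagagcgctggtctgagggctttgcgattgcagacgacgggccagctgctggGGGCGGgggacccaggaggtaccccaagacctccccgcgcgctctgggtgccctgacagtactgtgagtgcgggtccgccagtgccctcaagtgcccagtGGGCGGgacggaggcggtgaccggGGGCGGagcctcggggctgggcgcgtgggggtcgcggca
Cntn4 start 2, chr6:106118692-106118941, plus strand: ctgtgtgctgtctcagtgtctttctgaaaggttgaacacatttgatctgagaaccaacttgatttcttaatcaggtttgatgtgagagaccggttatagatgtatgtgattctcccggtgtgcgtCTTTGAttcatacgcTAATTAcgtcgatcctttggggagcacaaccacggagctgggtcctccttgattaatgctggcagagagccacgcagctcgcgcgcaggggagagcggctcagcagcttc
Lix1, chr17:17402436-17402685, plus strand: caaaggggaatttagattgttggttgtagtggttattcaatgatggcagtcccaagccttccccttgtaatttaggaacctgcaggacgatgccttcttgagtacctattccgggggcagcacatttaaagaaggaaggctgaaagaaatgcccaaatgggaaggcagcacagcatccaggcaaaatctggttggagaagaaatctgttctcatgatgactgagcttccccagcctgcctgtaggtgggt
Pla2g4c start 1, chr7:13325417-13325666, plus strand: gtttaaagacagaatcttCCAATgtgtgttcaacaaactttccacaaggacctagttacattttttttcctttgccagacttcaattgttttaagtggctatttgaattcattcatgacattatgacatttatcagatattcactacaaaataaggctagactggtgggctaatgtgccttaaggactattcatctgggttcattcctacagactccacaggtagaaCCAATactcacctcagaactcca
Ceacam1, chr7:25477626-25477875, minus strand: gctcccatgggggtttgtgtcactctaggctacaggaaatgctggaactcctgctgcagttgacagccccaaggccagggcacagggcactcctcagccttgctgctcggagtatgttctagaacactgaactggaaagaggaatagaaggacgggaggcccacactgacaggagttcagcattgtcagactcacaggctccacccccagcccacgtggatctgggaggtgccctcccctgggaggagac

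The windows had little in common by these motifs. The homeodomain core TAATTA stood in 2 of the 8 windows, at Cldn10 start 1 and Cntn4 start 2, and in 4.84% of 32851 windows of the same length in the reference table. The LEF/TCF core CTTTGA was in 1 window, Cntn4 start 2, and in 13.8% of all windows. The box CCAAT was in 2, at Cldn10 start 1 and Pla2g4c start 1, and in 33.8% of all. The GC box GGGCGG was found only at Cldn10 start 2 among the 8, where 3 matches lie, against 32.7% of all windows. No window held TATAAA, a motif of 12.4% of all windows. The loose E box CANNTG, not capitalised, was in all 8 and in 66.2% of all windows. The 2 starts of Cldn10 differ in composition, with 36.0% G and C at start 1 and 72.4% at start 2. These matches are letters in a window and say nothing of a factor bound there.

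The sort markers were high where the labels put them. Nt5e, the gene of CD73, ranged over 12.98 to 13.37 log2 intensity in OCP4 and 12.17 to 12.47 in OCP1, against 8.91 to 9.88 in OCP3 and 9.14 to 9.42 in OCP2. Thy1 ranged over 13.13 to 13.27 in OCP4, 9.20 to 9.42 in OCP1, 12.44 to 12.70 in OCP3 and 9.19 to 9.87 in OCP2. Cd9 was lowest in OCP4, at 10.45 to 10.78, against 11.40 to 11.60 in OCP1, 10.85 to 11.03 in OCP3 and 10.99 to 11.15 in OCP2. Array medians lay between 8.36 and 8.44 log2 units, and any 2 arrays of a group correlated over all genes with r between 0.9955 and 0.9979.

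Cldn10 showed the widest gap of all genes between OCP4 and every other array. Its log2 intensities were 11.23, 10.63, 11.23 and 11.26 in OCP4, 7.78, 7.66 and 7.60 in OCP1, 7.70, 7.61, 7.47 and 7.75 in OCP3, and 7.47, 7.56 and 7.39 in OCP2. The lowest OCP4 array, replicate 2, stood 2.85 log2 units above the highest array of any other group. OCP4 averaged 11.09 ± 0.31 (SD, n = 4), 3.41 ± 0.13, 3.45 ± 0.12 and 3.62 ± 0.13 log2 units (SE) above OCP1, OCP3 and OCP2, the last a 12.3-fold difference. The other 3 groups averaged 7.68, 7.63 and 7.47 and were within 0.21 of each other. A second probe set of Cldn10 gave differences of 3.08, 3.09 and 3.21 from OCP1, OCP3 and OCP2, with replicate 2 again the lowest OCP4 array at 9.93.

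Cntn4 came next in that ranking of 21734 genes. Its log2 intensities were 10.84, 10.51, 10.56 and 10.61 in OCP4, 7.75, 7.47 and 7.63 in OCP1, 7.51, 7.46, 7.56 and 7.46 in OCP3, and 7.81, 8.13 and 7.96 in OCP2. Every OCP4 array lay at least 2.38 units above every other array, and OCP2 held the highest 3 of the others. The OCP4 mean of 10.63 ± 0.15 (SD, n = 4) exceeded those of OCP1, OCP3 and OCP2 by 3.01 ± 0.09, 3.13 ± 0.08 and 2.66 ± 0.09 log2 units (SE), or 8.06-, 8.75- and 6.34-fold.

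Lix1, the limb transcript, ranked 7 with a gap of 2.21. Its log2 intensities were 11.78, 11.42, 11.84 and 11.85 in OCP4, 9.17, 9.02 and 9.0 in OCP1, 8.96, 8.71, 8.59 and 8.90 in OCP3, and 8.96, 9.21 and 8.99 in OCP2. OCP4 replicate 2 was again the lowest of its group. The fold over OCP1, OCP3 and OCP2 was 6.32, 7.64 and 6.37. Pla2g4c, the phospholipase, ranked 6 with a gap of 2.22. Its log2 intensities were 10.29, 10.27, 10.23 and 10.15 in OCP4, 7.14, 7.25 and 7.59 in OCP1, 7.83, 7.66, 7.71 and 7.14 in OCP3, and 7.93, 7.61 and 7.47 in OCP2. The 4 OCP4 arrays agreed to an SD of 0.06, while the arrays of the other groups were intermixed. Its fold was 7.50 over OCP1, 6.27 over OCP3 and 5.92 over OCP2.

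Stmn2, the microtubule regulator, was graded outside OCP4 rather than uniformly low. Its log2 intensities were 11.51, 11.53, 11.48 and 11.60 in OCP4, 8.40, 8.57 and 8.42 in OCP1, 9.68, 9.57, 9.58 and 9.24 in OCP3, and 9.38, 9.13 and 8.98 in OCP2. The OCP4 arrays lay within an SD of 0.05, and the nearest other group was OCP3, whose highest array was 1.80 units below the lowest of OCP4. OCP4 exceeded OCP1 by 8.35-fold, OCP3 by 4.04-fold and OCP2 by 5.16-fold, so the size of its OCP4 difference varied with the group it was set against.

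Ceacam1, the adhesion receptor, does not carry the name near-exclusive on these values. Its log2 intensities were 9.17, 9.35, 9.38 and 9.47 in OCP4, 7.26, 7.23 and 6.85 in OCP1, 7.57, 8.19, 7.64 and 7.81 in OCP3, and 8.91, 8.65 and 8.18 in OCP2. The highest OCP2 array came within 0.26 units of the lowest OCP4 array, and the gene ranked 410 by that gap. OCP4 exceeded OCP1 by 4.69-fold, OCP3 by 2.91-fold and OCP2 by 1.70-fold. At the edge of that rank, Casp1 stood just above it and Ccdc14 just below it, each also with a gap of 0.26.

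**Figure D1:**
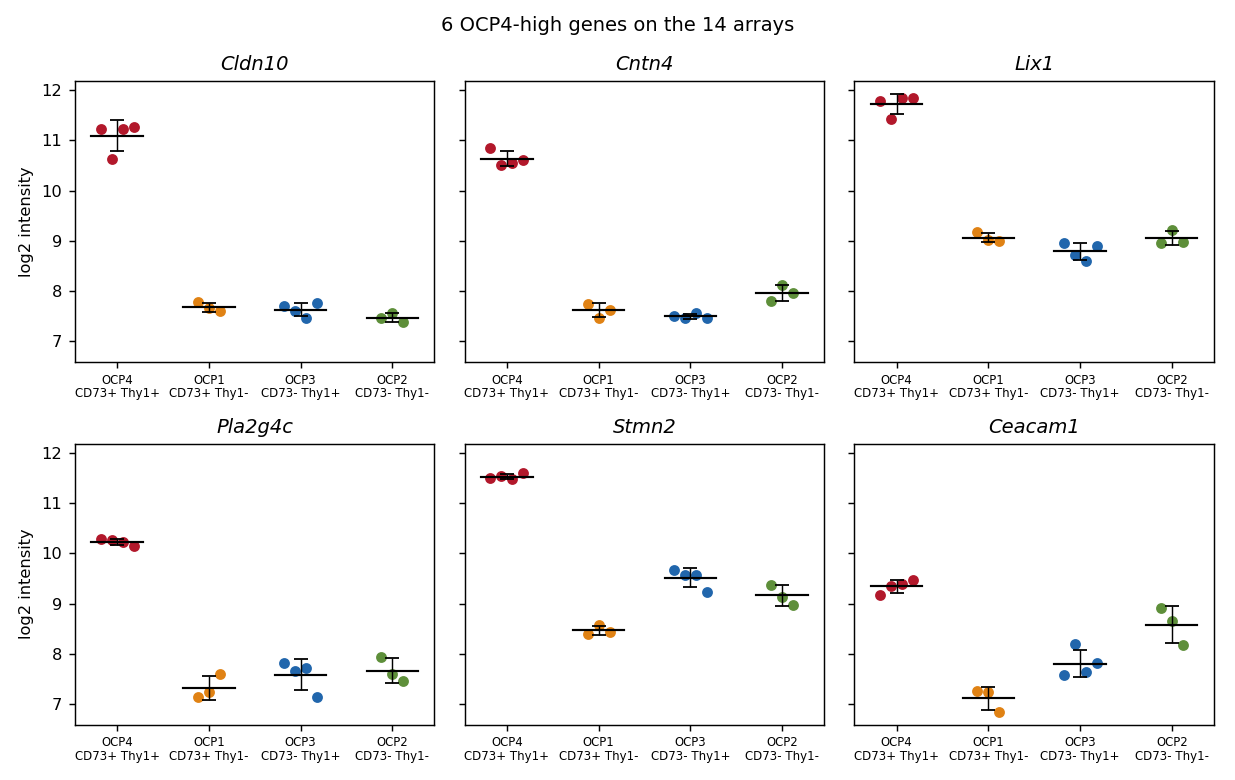
Log2 intensity of the 6 genes on each of the 14 arrays, 1 panel per gene, with points for arrays, bars for group means and groups ordered OCP4, OCP1, OCP3 and OCP2. Outside OCP4, the group means of Cldn10, Cntn4, Lix1 and Pla2g4c lie within 0.47 of each other, those of Stmn2 spread over 1.05, and the OCP2 points of Ceacam1 reach 8.91, close to the lowest OCP4 point at 9.17.

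All 6 genes kept OCP4 apart from every other array, as did 6.76% of all genes, but that separation is what chose them and nothing is read from it here. A gap of over 2 log2 units was held by 9 genes, or 0.0414% of those measured. The 4 of these that were among the chosen 6 were Cldn10, Cntn4, Pla2g4c and Lix1. The other 5 were Dkk1 (gap 2.38), a secreted inhibitor of Wnt signalling, Adh7 (2.35), an alcohol dehydrogenase that oxidises retinol, the Iroquois homeobox factors Irx1 (2.31) and Irx2 (2.13), and the zinc finger repressor Bcl11b (2.17). The ranking then passed to Mmp27 (2.00), a matrix metalloproteinase, Frem1 (1.96), an extracellular matrix protein, the neurotensin receptor Ntsr1 (1.85), the copine Cpne5 (1.80) and the tumour necrosis factor receptor relative Tnfrsf26 (1.80). These 10 were ranked by the OCP4 gap itself and are described without a test.

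**Figure D2:**
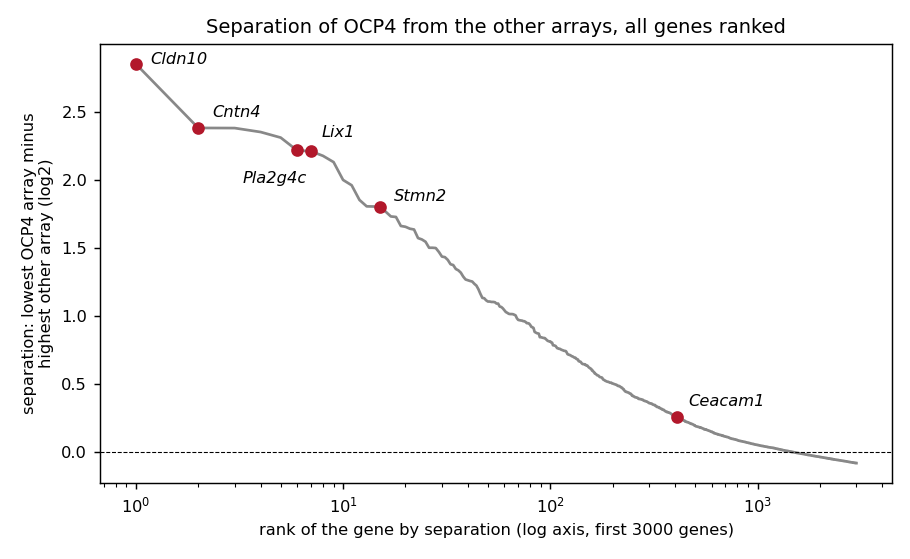
Gap in log2 units between the lowest OCP4 array and the highest array of any other group, against the rank of the gene on a log axis, for the head of the ranking; the line joins all genes there and the points mark the chosen 6. Cldn10 leads at 2.85, Stmn2 stands at 1.80, and Ceacam1, at rank 410, has fallen to 0.26.

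The genes whose centred profile over the 14 arrays lay closest to each of the 6 were drawn mostly from the same few names. These profiles include the OCP4 difference that chose the 6. The return of names from the head of the gap ranking therefore largely follows from the choice, and nothing is read from it. Measured as a root mean square difference in log2 units, Adh7 and Dkk1 were nearest to Cldn10 (0.385 each) and Irx1 followed (0.408). Frem1 (0.306), Mmp27 (0.313) and Bcl11b (0.330) were nearest to Cntn4. Mmp27 (0.222), Adh7 (0.242) and Bcl11b (0.269) were nearest to Lix1, and Frem1 (0.235), Bcl11b (0.275) and Adh7 (0.289) to Pla2g4c. Stmn2 had Frem1 (0.294), the transcriptional repressor Prdm1 (0.341) and Cpne5 (0.364). Ceacam1 had other neighbours, led by the endothelial transcription factor Sox18 (0.304), then Hoxb9 (0.408) and Tmem150c (0.416).

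The genes were not chosen for the differences among OCP1, OCP3 and OCP2, but these groups were what OCP4 was compared with. A gene high in any of these groups was less likely to be picked, which can limit the differences. The differences were tested with limma over all 21734 genes. Between OCP1 and OCP2, which differ in CD73 without Thy1, 3 of the 6 fell and none rose past an adjusted p of 0.05, where 6.56% of all genes were lower and 4.43% higher in OCP1. Between OCP3 and OCP2, which differ in Thy1 without CD73, 2 fell and 1 rose, against 9.48% of all genes lower and 6.63% higher in OCP3. Between OCP1 and OCP3, 2 fell and none rose, against 12.5% lower and 11.9% higher. With the arrays centred on their medians the split over all genes turned for OCP1 against OCP2, to 1531 higher and 976 lower in place of 963 and 1425. For OCP3 against OCP2 it became 1695 higher and 1534 lower in place of 1442 and 2060, and for OCP1 against OCP3 3002 higher and 2388 lower in place of 2596 and 2713. Cldn10, Lix1 and Pla2g4c passed in none of the 3 contrasts, by differences of up to 0.34 log2 units.

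Ceacam1 had the widest spread among the groups outside OCP4. OCP1 minus OCP2 was -1.47 ± 0.18 (adjusted p = 0.000134) log2 units, a 2.76-fold lower level in OCP1 with no overlap of arrays. OCP3 minus OCP2 was -0.78 ± 0.17 (adjusted p = 0.00569), though 1 OCP3 array at 8.19 reached into the range of OCP2. OCP1 minus OCP3 was -0.69 ± 0.17 (adjusted p = 0.00802). Outside OCP4 the levels ran from OCP2 at the top through OCP3 to OCP1, and each neighbouring pair in that order passed the test.

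Stmn2 was lowest in OCP1. OCP1 minus OCP3 was -1.05 ± 0.10 (adjusted p = 3.09e-06) log2 units, a 2.07-fold lower level in OCP1, and OCP1 minus OCP2 was -0.70 ± 0.11 (adjusted p = 0.000835). It was higher in OCP3 than in OCP2 by 0.35 ± 0.10 (adjusted p = 0.0301), with the arrays of both groups overlapping. That last call was lost without OCP2 replicate 2 or 3, or OCP3 replicate 1, 2 or 3, and with only the arrays of the groups compared, with adjusted p between 0.0594 and 0.141.

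Cntn4 was lower in both OCP1 and OCP3 than in OCP2. OCP3 minus OCP2 was -0.47 ± 0.09 (adjusted p = 0.00248) log2 units, and the arrays of these groups did not overlap. OCP1 minus OCP2 was -0.35 ± 0.10 (adjusted p = 0.0334), a call lost in 8 alternatives, with adjusted p between 0.063 and 0.154. It was lost with arrays centred on their medians, quantile normalization run again, a replicate block, or only the arrays of the groups compared. It was also lost without OCP1 replicate 2 or 3 and without OCP2 replicate 2 or 3. Lix1 missed the test between OCP1 and OCP3, at 0.27 ± 0.11 (adjusted p = 0.0956), and passed without OCP4 replicate 2 (0.0407). Pla2g4c missed it for the same pair, at -0.26 ± 0.15 (adjusted p = 0.249), and passed without OCP3 replicate 4 (0.0314).

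**Figure D3:**
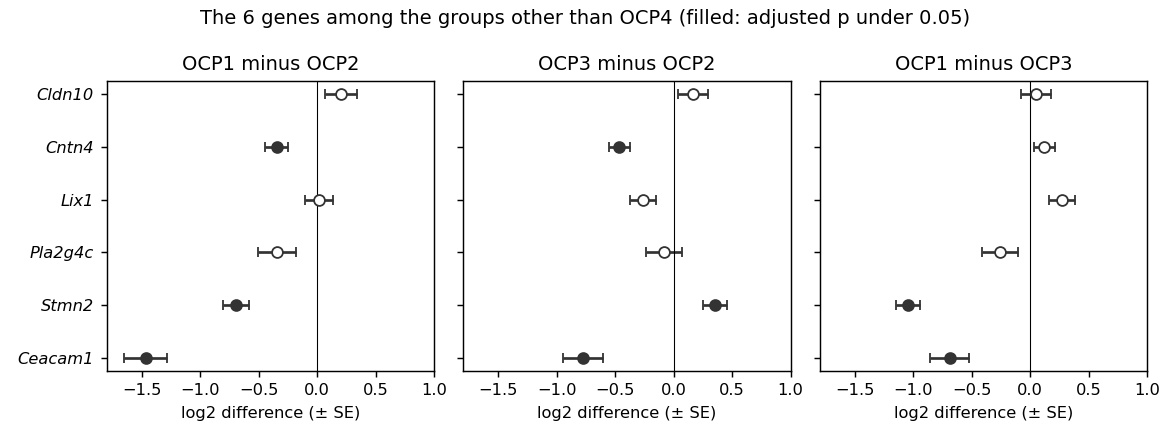
Differences in log2 intensity, with standard errors, of the 6 genes for OCP1 minus OCP2, OCP3 minus OCP2 and OCP1 minus OCP3, with calls at an adjusted p of 0.05 marked. Ceacam1 at -1.47 and Stmn2 at -1.05 extend furthest, and Cldn10 stays close to 0.

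The relatives of the 6 genes were read from lists of their families and pathways. Of 123 relatives measured, 13 (10.6%) were higher and 7 (5.69%) lower in OCP4 than in each of the other 3 groups, where 5.49% and 5.39% of all genes were. Over all genes, 13.8% were higher and 12.4% lower in OCP4 than in OCP1, 14.2% and 13.6% against OCP3, and 10.4% and 13.8% against OCP2. Centring the arrays on their medians gave a split of 4134 higher and 2550 lower against OCP3, in place of 3097 and 2949, and of 3753 and 2287 against OCP2, in place of 2258 and 2993.

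None of the 21 other claudins was called in the same direction against all 3 groups. Against OCP1, 2 were higher and 1 lower in OCP4, against OCP3 2 and 4, and against OCP2 1 and 4, with median differences of -0.02, 0.07 and -0.06 log2 units beside 0.01, 0.04 and 0.01 over all genes. Of 14 proteins that partner claudins in tight junctions, 2 were lower in OCP4 than in each group. Cgnl1, a cingulin relative of the junction plaque, differed by -1.11, -0.91 and -0.76 from OCP1, OCP3 and OCP2. The scaffold gene Mpp5 differed by -0.23, -0.31 and -0.16, and its call against OCP2 was lost in 8 alternatives (adjusted p 0.058 to 0.224). It was lost with arrays centred on their medians, quantile normalization run again, a replicate block, or only the arrays of the groups compared. It was also lost without OCP2 replicate 2 or 3 and without OCP4 replicate 1 or 4.

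Among 19 contactins and their partners, 2 were higher and 2 lower in OCP4 than in each group. The adhesion protein Nrcam rose by 1.06, 0.90 and 1.03 log2 units over OCP1, OCP3 and OCP2, and contactin Cntn1 by 0.53, 0.45 and 0.48. Ptprz1, a receptor phosphatase that binds contactins, differed by -0.97, -1.63 and -1.29, and App, the amyloid precursor protein, by -0.36, -0.32 and -0.30. The list medians were -0.09, 0.02 and -0.14 against the same 3 groups. None of the 10 other stathmins and tubulin partners was called one way against all 3 groups. Stmn1, a stathmin of dividing cells, was higher than in OCP1 (0.30 ± 0.05, adjusted p = 0.000341) and OCP2 (0.16 ± 0.05, adjusted p = 0.0269). Its difference from OCP3 was 0.07 ± 0.05 (adjusted p = 0.314). The medians of that list were 0.12, -0.08 and 0.08.

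Of 18 genes made up of the Lix1 paralogue and the Hippo pathway, 5 were higher and 1 lower in OCP4 than in each group. Tead3, a DNA-binding partner of Yap1, rose by 0.39, 0.39 and 0.43 log2 units, the Hippo kinase Stk3 by 0.42, 0.25 and 0.42 and the coactivator Wwtr1 by 0.23, 0.39 and 0.31. The remaining 2 were Tead1 and Tead2. Ctgf, a matrix-associated protein and a target of Yap1, differed by -1.41, -1.02 and -0.66. Cyr61, another Yap1 target, went the other way, by 0.42 ± 0.09 over OCP3 (adjusted p = 0.00326) and 0.53 ± 0.10 over OCP2 (adjusted p = 0.00104), with 0.22 ± 0.10 over OCP1 (adjusted p = 0.122). The paralogue Lix1l averaged 12.57 in OCP4, 12.54 in OCP1, 12.59 in OCP3 and 12.53 in OCP2 and was called in no contrast. The medians of the list were 0.11, 0.03 and 0.07.

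Of 27 genes of cytosolic phospholipases and eicosanoids, 5 were higher and 2 lower in OCP4 than in each group. Ptgfr, the prostaglandin F receptor, rose most, by 1.51, 1.81 and 1.72 log2 units over OCP1, OCP3 and OCP2. Ptges, a prostaglandin E synthase, rose by 0.45, 0.78 and 0.49, and Ptgs2, the inducible cyclooxygenase, by 0.33, 0.36 and 0.93. The call of Ptgs2 against OCP1 was lost without OCP1 replicate 2, OCP4 replicate 1 or OCP4 replicate 4 (adjusted p 0.0578 to 0.114). The prostaglandin E receptors Ptger3 and Ptger4 were the other two. Pla2g4a, the calcium-dependent relative of Pla2g4c, was lower in OCP4, with differences of -0.37, -0.39 and -0.56, and the lipoxygenase Alox12 was lower too, with -0.98, -0.44 and -1.09. The list medians were 0.05, 0.04 and 0.05.

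Of 14 Ceacam genes and phosphatases, 1 was higher in OCP4 than in each group. Ceacam2, a close copy of Ceacam1, had log2 intensities of 7.49, 8.19, 7.92 and 8.03 in OCP4, 7.41, 7.41 and 7.41 in OCP1, 7.04, 7.36, 7.12 and 7.41 in OCP3, and 7.52, 7.37 and 6.96 in OCP2, and differed by 0.50, 0.67 and 0.62 from OCP1, OCP3 and OCP2. Probes of these similar genes can share signal, so the Ceacam2 values are uncertain. Its calls were lost without any 1 of the 3 OCP1 arrays or without OCP4 replicate 2, 3 or 4 against OCP1 (adjusted p 0.0542 to 0.0827), and without OCP2 replicate 3 against OCP2 (0.052). The list medians were 0.05, 0.07 and 0.08.

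**Figure D4:**
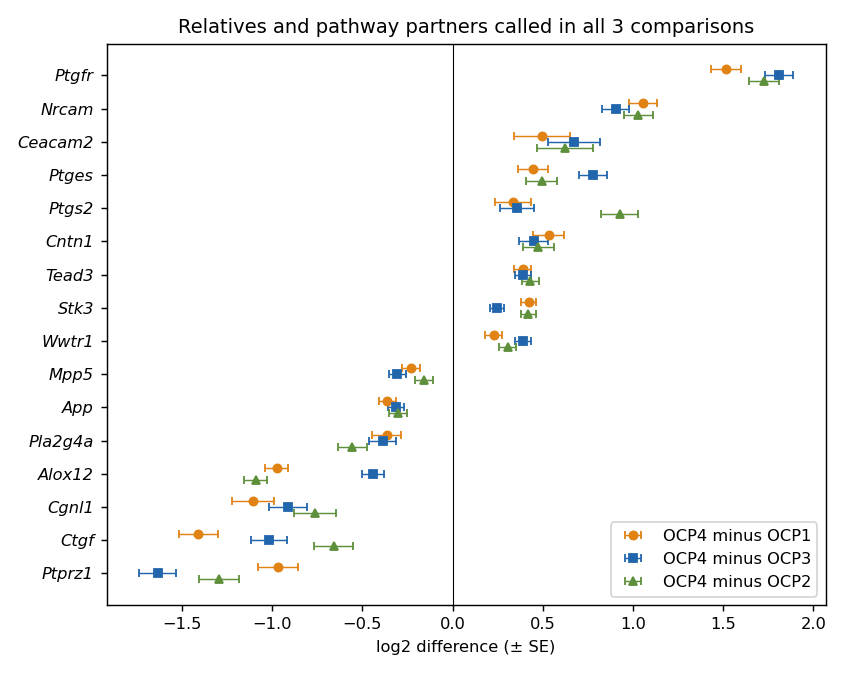
Log2 differences of OCP4 from OCP1 (circles), OCP3 (squares) and OCP2 (triangles), with standard errors, for the named relatives called in the same direction against all 3 groups. Ptgfr lies highest, at up to 1.81, and Ptprz1 lowest, at down to -1.63.

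The nearest measured protein-coding genes on each side of the 6, by the order of genes in GRCm38.p6, were read in the same contrasts. Of the 12, 2 were called higher and none lower in OCP4 than in each of the 3 groups. Over all genes these shares were 5.49% and 5.39%. Lig1, a DNA ligase beside Pla2g4c, differed by 0.32, 0.20 and 0.19 log2 units, and its call against OCP2 was lost without OCP2 replicate 2 (adjusted p = 0.0576). Ceacam2 is the other, beside Ceacam1. Cntn6, a contactin beside Cntn4, differed by -0.06, -0.96 and -0.69, and the transcriptional repressor Hey1 beside Stmn2 by 0.94, -0.56 and -0.20. The remaining neighbours were Abcc4 and Dzip1 of Cldn10, Il5ra of Cntn4, Riok2 and Lnpep of Lix1, Cabp5 of Pla2g4c, Il7 of Stmn2 and Cxcl17 of Ceacam1. None of them was called one way against all 3 groups, while Abcc4, Dzip1 and Cabp5 were called against fewer.

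Because Stmn2, Cntn4, Cldn10 and Ceacam1 are known from nerve, epithelium and endothelium, markers of these and other cell types were read in the same arrays. Array intensities never reach 0, so no marker is at 0, and the values hold no detection call. Over all genes, 5.49% were higher and 5.39% lower in OCP4 than in each of the 3 other groups. Of 14 neuron markers, 1 was higher in OCP4 than in each group, Gap43, and 4 lower, Nefl, Nefm, Uchl1 and Prph. Their summed linear intensity was 6625 to 7227 in OCP4, 8972 to 9812 in OCP1, 7346 to 8481 in OCP3 and 8714 to 9719 in OCP2. The marker with the largest drop, Nefl, averaged 9.13 in OCP4, 11.07 in OCP1, 9.69 in OCP3 and 10.62 in OCP2, while Gap43 averaged 11.48, 10.77, 11.12 and 10.91 in the same order. The part of nerve cells in the Stmn2 and Cntn4 levels was not tested. Of 15 epithelial markers none was called one way against all 3 groups, and the sums overlapped, at 4803 to 7099 in OCP4, 4561 to 5610 in OCP1, 4365 to 5980 in OCP3 and 4595 to 7504 in OCP2. The lowest OCP4 neuron sum was that of replicate 1. The lowest OCP4 epithelial sum was that of replicate 2, the OCP4 array lowest in Cldn10 and Lix1. The part of epithelial cells in that array was not tested.

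Endothelial markers varied between the groups and, in part, between the arrays in which Ceacam1 varied. Of 12 markers, 1 was higher in OCP4 than in each group, Sox18, and the sums were 17104 to 19641 in OCP4, 12803 to 13777 in OCP1, 20989 to 26618 in OCP3 and 23253 to 36266 in OCP2. Of all genes, 13.8% were higher and 12.4% lower in OCP4 than in OCP1, 14.2% and 13.6% against OCP3, and 10.4% and 13.8% against OCP2. Against OCP1, 6 of the 12 markers were higher and 0 lower (median 0.48 log2 units). Against OCP3, 1 was higher and 5 lower (-0.35), and against OCP2 1 was higher and 10 lower (-0.92). The OCP2 array with the highest sum, replicate 1 at 36266, also had the highest Ceacam1 of that group, and replicate 3 had the lowest of both at 23253 and 8.18. In OCP3 the highest of both fell on replicate 2, at 26618 and 8.19, and in OCP1 the lowest of both on replicate 3, at 12803 and 6.85. In OCP4 the lowest of both fell on replicate 1, at 17104 and 9.17. The other extremes did not coincide. In OCP4 the highest sum, 19641, was that of replicate 3 and the highest Ceacam1, 9.47, that of replicate 4. In OCP3 the lowest sum, 20989, was that of replicate 4, whose Ceacam1 of 7.81 was above those of replicates 1 and 3. In OCP1 the highest sum, 13777, was that of replicate 2 and the highest Ceacam1, 7.26, that of replicate 1. OCP4 had the highest Ceacam1 with every sum below those of OCP3 and OCP2. The part of endothelial cells in these levels was not tested.

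Markers of dermal and fibrous connective tissue gave 5 of 12 higher, Twist2, Lef1, Twist1, Crabp1 and Lum, and 1 lower, Postn, with sums of 156732 to 167582 in OCP4, 123928 to 132450 in OCP1, 109414 to 127047 in OCP3 and 110290 to 117898 in OCP2. Of all genes, 5.49% were higher and 5.39% lower against all 3 groups. By group, 13.8% were higher and 12.4% lower than in OCP1, 14.2% and 13.6% than in OCP3, and 10.4% and 13.8% than in OCP2. Twist2, a transcription factor of fibroblasts, rose by 1.92, 2.16 and 2.70 log2 units over OCP1, OCP3 and OCP2. The calls of Postn were lost against OCP3 in 7 alternatives and against OCP2 in 6. Both were lost with arrays centred on their medians and with only the arrays of the groups compared. Against OCP3 the other alternatives left out OCP3 replicate 1, 3 or 4, or OCP4 replicate 1 or 2. Against OCP2 they left out OCP2 replicate 2 or 3, or OCP4 replicate 1 or 2. Lists of the limb tissues gave none higher against all 3 groups, with 3 of 11 cartilage, 2 of 10 osteoblast and 5 of 8 tendon markers lower in OCP4 than in each. Cartilage markers differed by group: 11 of 11 were lower in OCP4 than in OCP1 (median -2.18 log2 units) and than in OCP2 (-1.30), but against OCP3 5 were higher and 3 lower (0.41). Osteoblast markers were lower in 7 of 10 against OCP1 (-0.69), lower in 7 and higher in 1 against OCP3 (-0.73), and lower in 3 and higher in 3 against OCP2 (-0.11). Tendon markers were lower in 7, 5 and 6 of 8 against OCP1, OCP3 and OCP2.

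The remaining lists also depended on the group OCP4 was set against. Of all genes, 5.49% were higher and 5.39% lower against all 3 groups. By group, 13.8% were higher and 12.4% lower than in OCP1, 14.2% and 13.6% than in OCP3, and 10.4% and 13.8% than in OCP2. Schwann cell and pericyte lists had 1 marker each of 10 lower against all 3 groups, and the haematopoietic and skeletal muscle lists none of 10 in either direction. Schwann cell markers were lower in 1 of 10 against OCP1 (median 0.11), 9 against OCP3 (-1.20) and 10 against OCP2 (-1.35), with sums of 4577 to 6551 in OCP4, 5421 to 6419 in OCP1, 14325 to 18347 in OCP3 and 13020 to 16595 in OCP2. Pericyte and smooth muscle markers were higher in 4 of 10 and lower in 1 against OCP1 (0.13), lower in 10 against OCP3 (-1.91), and higher in 2 and lower in 7 against OCP2 (-0.62). Haematopoietic markers were higher in 3 and 5 of 10 against OCP1 and OCP3 and in none against OCP2. Skeletal muscle markers were lower in none, 1 and 6 of 10 against OCP1, OCP3 and OCP2. The part of these cell types in the levels of the 6 genes was not tested. By mean difference from the other 3 groups, the low ends of the lists included Sox5 (-1.62) of cartilage, Phex (-1.56) of osteoblasts, Scx (-1.25) of tendon and Fabp7 (-1.46) of Schwann cells. The high ends of these lists were Col11a2, Runx2, Egr1 and Mbp, in the same order. Against OCP1, OCP3 and OCP2, Col11a2 differed by -1.18, 0.16 and -0.52 and Runx2 by 0.18, -0.43 and 1.10. Egr1 differed by -0.08, 0.12 and 0.06 and Mbp by 0.11, -0.06 and -0.29.

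**Figure D5:**
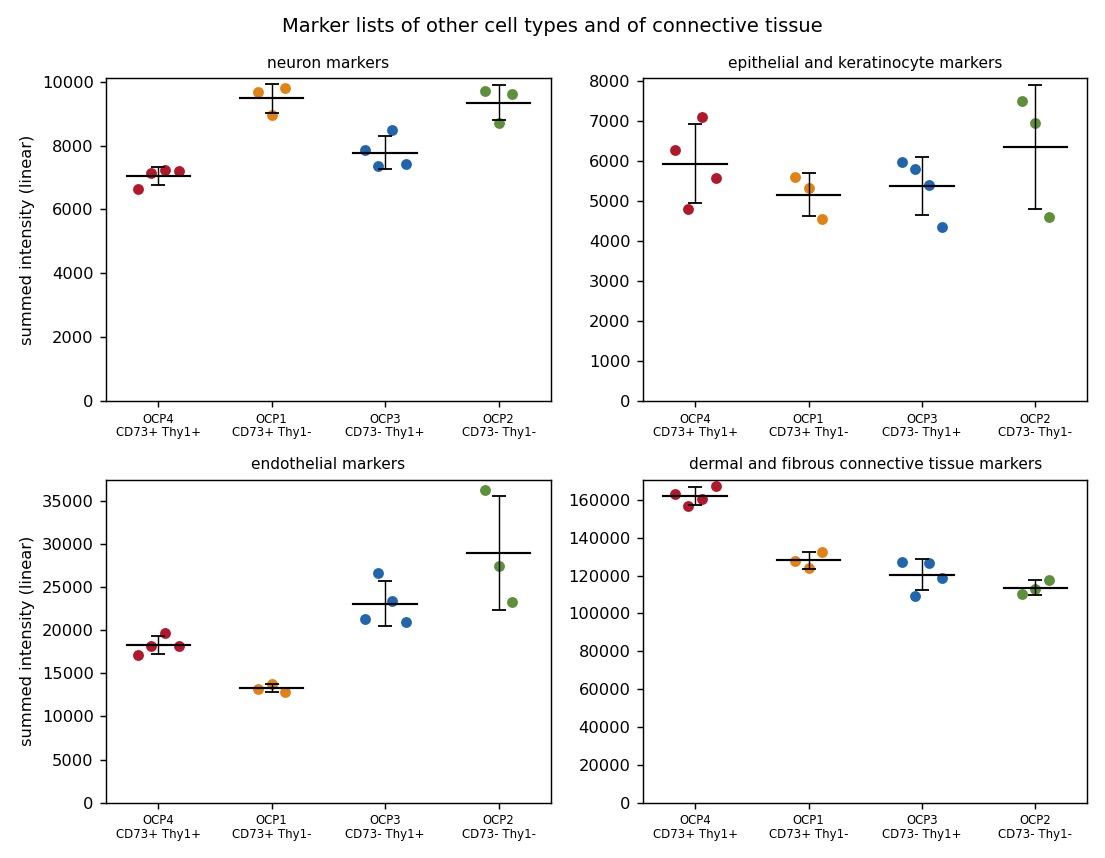
Summed linear intensity of the neuron, epithelial, endothelial and dermal marker lists on each array, 1 panel per list, with groups ordered OCP4, OCP1, OCP3 and OCP2. OCP4 is lowest for the neuron list and highest for the dermal list, and its endothelial sums of 17104 to 19641 lie above OCP1 and below OCP3 and OCP2.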

How the data were processed

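RNA of 14 sorted samples was measured on arrays. Per the submitters' processing notes the authors used RMA and limma, with no version given. The deposited value table holds 1 linear intensity per probe set and array, which was put on the log2 scale for this report, although the design written beforehand expected log2 values in the file. A second table that the authors deposited has their log2 fold changes, mean log2 levels and adjusted p-values, which served only to check the row order, and the gene symbols used here. Of 35556 probe sets, 25228 had a usable symbol and 26 symbols had become dates, leaving 21734 genes, each read from its brightest probe set. All groups were fitted together with limma 3.58.1 in R 4.3.3, with Benjamini-Hochberg adjustment over all genes and a threshold of 0.05; the fit was tested on simulated data. Without counts, the number of arrays limits precision. Alternatives changed the probe set rule, normalization, moderation, weights, arrays and replicate block.

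The 6 genes and the 7 family and 11 marker lists were chosen with earlier results of these data known. Named besides were the first 10 other genes by OCP4 gap, the 3 nearest profiles of each gene, up to 3 relatives per list and direction called against all 3 groups, adjacent genes, the marker list extremes and the sort markers; further called genes were named after their values were seen.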

Additional observations from a re-analysis of the deposited data

Results flagged for a closer look

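Within OCP4, replicate 2 stood apart from the other 3 arrays in 2 of the 6 genes. Its Cldn10 value was 10.63, a gap of 0.60 log2 units to the next array and 0.951 of the whole range. Its Lix1 value was 11.42, a gap of 0.36 and 0.854 of the range. Both exceed Dixon's 95% critical value for 4 arrays. Chance alone passes it in about 1 group in 20, and 2 of 12 groups of these genes passed it, as did 4 of 130 groups of the other named genes, 1 of those in OCP4 replicate 2. Those were Dkk1 in OCP4 replicate 4, highest at 12.31, Dzip1 in OCP4 replicate 2, lowest at 11.23, Lig1 in OCP3 replicate 1, lowest at 11.49, and Cd9 in OCP3 replicate 2, lowest at 10.85. In Cntn4, OCP4 replicate 2 was also the lowest of OCP4, while in Pla2g4c, Stmn2 and Ceacam1 it lay within the range of the other 3. It was the lowest OCP4 array in 7 of the 10 other genes at the head of the ranking (Dkk1, Adh7, Irx1, Mmp27, Frem1, Cpne5 and Tnfrsf26). That ranking used the lowest OCP4 array of each gene, and the share over all genes was not counted. Replicate 2 had the lowest OCP4 sums of epithelial (4803) and dermal (156732) markers. For neuron (6625) and endothelial (17104) markers the lowest OCP4 sum was that of replicate 1. The part of these cell types in the Cldn10 and Lix1 values was not tested.

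For some relatives, neighbours and sort markers, the difference between CD73+ and CD73- cells was not the same with and without Thy1, by a limma test of the difference itself (OCP4 minus OCP3, less OCP1 minus OCP2). Relatives had been named by their calls in OCP4, which partly fixes this value. In log2 units it was -1.255 for Cgnl1, -0.3829 for Mpp5, 0.9303 for Nrcam, 0.5072 for Cntn1, -1.31 for Ptprz1 and -0.3761 for App. It was 0.3466 for Tead3, 0.2478 for Stk3, 0.3144 for Wwtr1 and -1.768 for Ctgf. It was 1.598 for Ptgfr, 0.7288 for Ptges and -0.326 for Alox12. Among neighbours it was -0.3289 for Cntn6, 0.3387 for Lig1 and 0.5689 for Hey1. Among sort markers it was 0.8875 for Thy1 and -0.8245 for Cd9. Cells had been sorted on these markers, so the sort itself can shape their values. For Ctgf, OCP4 minus OCP3 was -1.02 and OCP1 minus OCP2 was 0.75. Not passing an adjusted p of 0.05 in that test were Nt5e (0.749, adjusted p = 0.0587), Ptgs2 (-0.234, 0.316), Pla2g4a (-0.195, 0.285) and Ceacam2 (0.548, 0.107). The neighbours Abcc4, Dzip1, Il5ra, Riok2, Lnpep, Cabp5, Il7 and Cxcl17 did not pass either. The share of all genes that passed is not given here.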

How the results depend on the processing

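Leaving out 1 array at a time moved the genes called between OCP1 and OCP2 from 2388 to between 1477 and 2516, lowest without OCP1 replicate 1 and 1486 without OCP2 replicate 2; no other count moved over 1.5 times. The gap of Cldn10 was 2.51 with the mean of its probe sets and 3.45 without its lowest array, and that of Ceacam1 was 0.40 after quantile normalization and between 0.26 and 0.51 with 1 array left out.

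Whether replicate numbers pair the arrays cannot be told from these values. Deviations correlated over 0.1 in 8 of 19 same-numbered pairs and in 18 of 54 other pairs. Median r was 0.057 (-0.419 to 0.395) for same-numbered pairs and 0.013 (-0.455 to 0.434) for the others. With the replicate block, 12 relatives were higher and 6 lower in OCP4 than in each group. Between OCP1 and OCP2, OCP3 and OCP2, and OCP1 and OCP3, 2, 3 and 2 of the 6 genes were called. Without the block these counts were 13 and 7, and 3, 3 and 2. There, 5.49% of all genes were higher and 5.39% lower in OCP4 than in each group. For the 3 pairs, 2388, 3502 and 5309 of 21734 genes were called. The shares of all genes with the block are not given here, so its counts stand without a background.

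Of 19 differences that changed sign, 18 had not passed the test (lowest adjusted p 0.567); the causes were not tested. The exception was Runx2, OCP4 minus OCP3, at 0.014 with the mean of all probe sets in place of -0.43. With array weights, Lix1 (OCP1 minus OCP2) gave -0.0082 and Krt5 (OCP4 minus OCP3) 0.040. With arrays centred, Krt5 gave 0.013, OCP4 minus OCP1 gave 0.0051 for Il5ra, and OCP4 minus OCP2 gave 0.0014 for Riok2 and 0.039 for Itgam. With quantile normalization run again, OCP4 minus OCP3 gave 0.014 for Krt5, -0.030 for Il5ra and -0.048 for Il7, and OCP4 minus OCP2 -0.014 for Il7. With the replicate block, Pla2g4c (OCP3 minus OCP2) gave 0.0045, Il5ra (OCP4 minus OCP1) 0.0021 and Il7 (OCP4 minus OCP2) -0.0085.

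With 1 array left out, the ranges were -0.010 to 0.085 for Cldn10 (OCP1 minus OCP3), -0.040 to 0.093 for Lix1 (OCP1 minus OCP2) and -0.18 to 0.064 for Pla2g4c (OCP3 minus OCP2). For OCP4 minus OCP1 they were -0.12 to 0.033 for Cntn6, -0.0021 to 0.095 for Dzip1, -0.043 to 0.047 for Il5ra and -0.44 to 0.39 for Myh11. For OCP4 minus OCP3 they were -0.025 to 0.078 for Cxcl17, -0.045 to 0.087 for Il5ra, -0.025 to 0.027 for Il7, -0.24 to 0.17 for Krt5 and -0.12 to 0.020 for Mbp. For OCP4 minus OCP2 they were -0.033 to 0.050 for Cxcl17, -0.036 to 0.065 for Il7, -0.11 to 0.022 for Itgam, -0.11 to 0.41 for Krt5 and -0.015 to 0.069 for Lnpep.

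The values hold no detection call, so whether the low levels outside OCP4 lie above background was not tested; an intensity ratio can then understate a ratio of RNA.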
